A study of Mus musculus with 6 samples.

Results

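The 52 genes described here copy the genome in S phase, or act in the control of that copying, in S-phase entry or in repair. They were chosen by their known role in DNA replication and S-phase entry, with earlier results of these data already known. The shares given for them are therefore a description and not an independent test. They make up 52 of the 17189 genes with values in the deposited table. All 52 were among the 13399 genes that passed a filter on low counts and were tested. They fall into 8 roles: 11 licensing genes, 6 of helicase activation, 8 of polymerases and primase, 9 of the sliding clamp, its loader and lagging-strand joining, 5 of nucleotide supply, 5 of chromatin and methylation copying, 5 of S-phase entry control, and 3 of recombination and resection. Messenger RNA was sequenced from primary articular chondrocytes of WT mice, the cells that build and maintain joint cartilage. The series title concerns aged skin, experimental osteoarthritis and IL-36R signaling. Its 6 libraries formed 3 groups of 2. The first was labelled control CCs. The second was labelled aging SNL CCs. The third carried the aging SNL condition together with Spesolimab, an antibody against the IL-36 receptor. Whether it blocked the receptor in these mouse cells was not tested here. All 3 groups share the WT genotype. The labels do not expand SNL or CCs, and give neither the age of the animals nor a dose or time. Nor do they say if the 2 libraries of a group are separate animals or cultures. The p-values therefore cover only how far these libraries spread, and that spread may be technical.

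Before S phase, the origin recognition complex, Cdc6 and Cdt1 load the ring-shaped Mcm2-7 helicase onto DNA, a step called licensing. Cdc45 and the GINS complex then switch the helicase on, primase and the polymerases copy both strands around the sliding clamp Pcna, and Fen1 and Lig1 join the lagging-strand fragments. Transcription of most of these genes rises as cells leave G1, under E2F factors that are held in check by the retinoblastoma family. Chondrocytes of adult articular cartilage rarely divide, whereas isolated chondrocytes in culture can.

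The libraries held 16566791 to 17312833 counts, so depth was alike in all of them. The 52 genes together took 0.0801% and 0.102% of the control counts, 0.0524% and 0.0577% of those under aging SNL, and 0.0610% and 0.0586% of the spesolimab counts. The lowest count of any of them was 7, with a counting error of 37.8%, and the highest was 1399. All 10 chondrocyte markers had values, and their summed level was 67535 and 64702 CPM, counts scaled to depth, in control. It was 13755 and 75882 CPM under aging SNL and 68388 and 78970 CPM in the spesolimab libraries. Aging SNL replicate 1 was therefore far below the other 5 libraries in chondrocyte markers, so the counts of calls are given without each aging SNL library in turn. Summed markers of macrophages (10 of 10 with values) were 116 and 26.6 CPM (control), 156 and 40.6 CPM (aging SNL) and 158 and 39.0 CPM (spesolimab), higher in each replicate 1. Those of synovial fibroblasts (9 of 9) ranged from 510 to 607 CPM (control), 425 to 510 CPM (aging SNL) and 554 to 633 CPM (spesolimab). The endothelial and mural markers (9 of 9) summed to 506 and 563 CPM (control), 297 and 669 CPM (aging SNL) and 506 and 643 CPM (spesolimab). Osteoblast and osteoclast markers (7 of 7) were lower in aging SNL without overlap, at 422 and 311 CPM (control), 269 and 214 CPM (aging SNL) and 502 and 240 CPM (spesolimab). Neutrophil and lymphocyte markers, of which 3 of 8 had values, were higher in aging SNL at a very low level, with 1.26 and 0.841 CPM (control), 4.29 and 4.70 CPM (aging SNL) and 0.584 and 2.00 CPM (spesolimab). Keratinocyte markers (6 of 8) stayed between 16.8 and 23.7 CPM and erythroid markers (2 of 5) at or under 0.0602 CPM in all libraries. No marker with values was at 0 in all libraries. The part of these cell types in the results was not tested. In whole-culture RNA, fewer cells in S phase and less RNA of a gene per cell cannot be told apart.

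Replication genes were lower in both aging SNL libraries than in control, and were also lower than control with spesolimab. For 42 of the 52 both aging SNL libraries lay below both controls, and for 0 did both lie above, where 21.1% of all genes tested lay below and 20.9% above. The median log2 fold change was -0.75, ranging from -2.53 to 0.03, beside 0.01 for all genes tested. Of the 52, 50 had a fitted fold change below 0 (48% of all genes), 19 were more than 2-fold lower (2.87% of all genes), and 35 were lower at an unadjusted p under 0.05 (6.15% of all genes). In the edgeR quasi-likelihood test over all 6 libraries, 0 of 52 passed an adjusted p of 0.05, as did 0% of all genes in that direction; the lowest adjusted p among the 52 was 0.055, for Pclaf. DESeq2 on the same libraries called 14 of 52 lower, against 1.43% of all genes. Without aging SNL replicate 1, edgeR called 9 of 52 lower (1.61% of all genes). Without replicate 2 it called 29 (12.3% of all genes). In both of these fits the remaining aging SNL library is assumed to vary like the other groups. The 9 genes of the first fit, Lig1, Mcm3, Mcm4, Mcm5, Pclaf, Pole, Rrm2, Tk1 and Uhrf1, were all among the 29, so these 9 fell with either aging SNL library alone. The other genes of the second fit passed only there: Orc6, Mcm2, Mcm6, Mcm7, Gins2, Pola1, Prim1, Pole2, Pcna, Rfc3, Rfc5, Rrm1, Dut, Dnmt1, Chaf1a, Chaf1b, Ccne2, E2f8, Brca1 and Exo1. The adjusted p also depends on the p-values of all genes, which differed between these fits. Without replicate 1 and without replicate 2, the log2 fold change was -1.08 and -0.91 for Brca1 and -0.75 and -0.67 for Chaf1a. It was -2.12 and -1.93 for Chaf1b and -0.74 and -0.60 for Rrm1. These genes fell no less without replicate 1, whereas the rest of that list fell less without it.

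**Figure D1:**
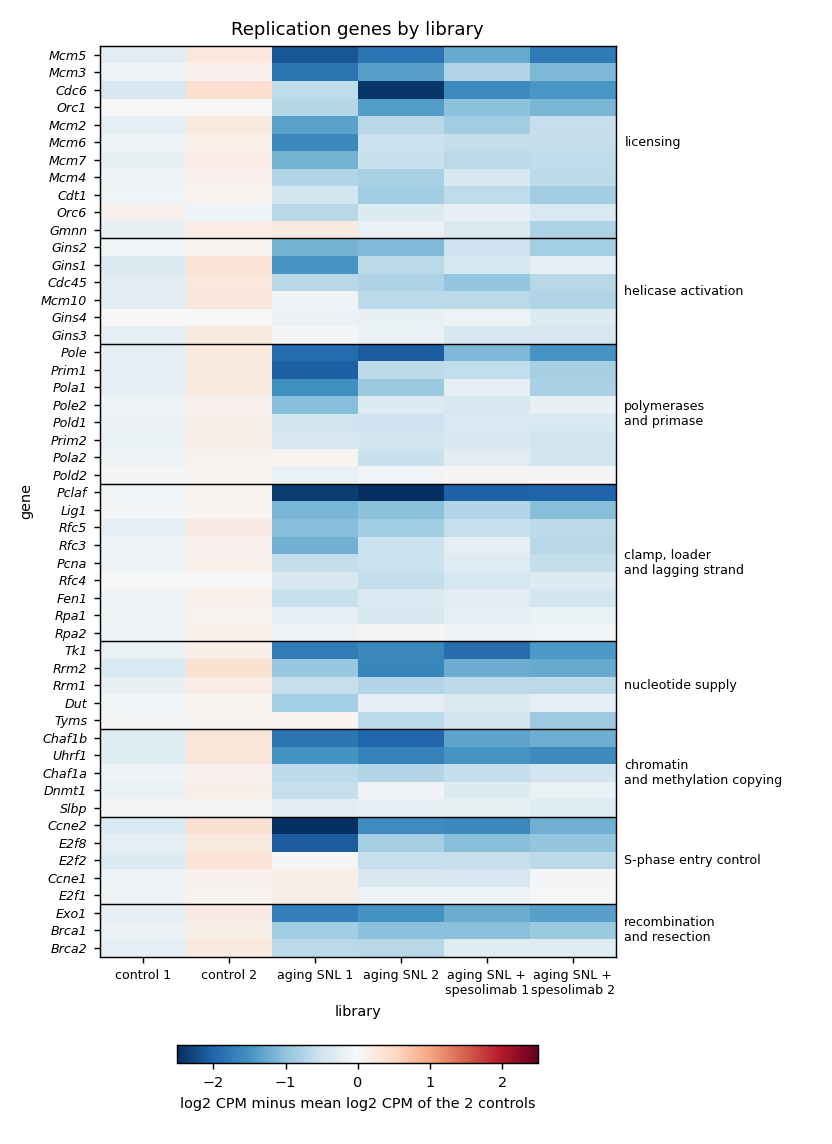
Each row is 1 of the 52 genes, grouped by role, and each column 1 library; the colour gives log2 CPM minus the mean log2 CPM of the 2 controls. Blue fills most of the 4 columns to the right of the controls, with the median gene at -0.71 and -0.68 for aging SNL and at -0.54 and -0.67 for spesolimab, and E2f1 and Rpa2 stay pale across the row.

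For the median of these genes, both aging SNL libraries lay at nearly the same level. The median gene sat 0.71 log2 units under the control mean in replicate 1 and 0.68 under it in replicate 2, where the controls themselves sat at -0.15 and 0.15. Replicate 1 was the lower of the pair for 25 of the 52. In 5 of them, Cdc6, Mcm6, Prim1, Ccne2 and E2f8, the aging SNL libraries were more than 2-fold apart, which is 9.62% of the 52 against 13.9% of all genes tested.

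The promoters of these genes were scanned for letters of known cell-cycle sites. RefSeq promoter windows of 300 bases, 250 before and 50 after the start, on build GRCm38.p6, matched 43 of the 52 genes. Ccne2, Exo1, Gins1, Gins2, Gins4, Gmnn, Mcm4, Pole and Prim2 were not among the matches. E2F-site letters were TTT, then CC, CG, GC or GG, then CGC. They were searched on both strands, and neighbouring matches may overlap. Of the 43 genes 18 held them, or 41.9%, against 4.65% of all genes tested with a window and 2.6% of all genes in the table. Licensing genes held them in 7 of 9, and nucleotide supply genes in 0 of 5. The letters TTTGAA, of the cell-cycle homology region (CHR), were in 18.6% of the 43 and in 14.3% of all genes tested. In the mitosis list, E2F-site letters were in 0 of 26 genes with a window and TTTGAA in 18 of 26, or 69.2%. CCAAT was in 62.8% of the 43, 76.9% of mitosis genes and 43.0% of all genes tested. A match of letters is not a bound site, and base composition was not matched between these sets. Nor does a window without these letters show that a gene lacks an E2F site. Only exact letters were read, within 300 bases that may not hold the promoter in use.

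**Figure D2:**
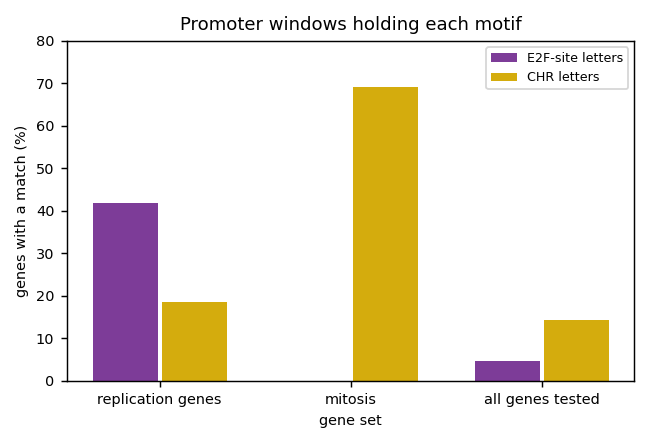
Percent of genes with a promoter window that hold E2F-site letters (purple) or the CHR letters (yellow), for the replication genes, the mitosis list and all genes tested. E2F-site letters are in 41.9%, 0% and 4.65% of genes, and the CHR letters in 18.6%, 69.2% and 14.3%.

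Windows of 4 genes called lower in at least 1 of these fits are printed because they show where these letters lie: 3 ring subunits and Pclaf, the gene with the largest fold change. Capitals mark E2F-site letters on either strand; where matches overlap they form a longer run. Each is read 5′ to 3′ along the gene's strand. The Mcm3 (gene 17215) window is chr1:20820263-20820562 on the minus strand, with matches beginning 19 and 38 bases after the start. The Mcm5 (gene 17218) window is chr8:75109259-75109558 on the plus strand, with an overlapping pair that begins 153 and 149 bases before the start. The Mcm6 (gene 17219) window is chr1:128359656-128359955 on the minus strand, with an overlapping pair 110 and 106 bases and a further match 47 bases before the start. The Pclaf (gene 68026) window is chr9:65890073-65890372 on the plus strand, with a match that begins 5 bases before the start.
Mcm3: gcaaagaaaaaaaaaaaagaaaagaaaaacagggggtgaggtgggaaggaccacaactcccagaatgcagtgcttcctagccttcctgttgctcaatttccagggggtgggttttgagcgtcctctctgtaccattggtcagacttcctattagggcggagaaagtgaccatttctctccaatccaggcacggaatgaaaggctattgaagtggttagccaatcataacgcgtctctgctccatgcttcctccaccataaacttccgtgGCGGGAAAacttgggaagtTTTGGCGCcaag
Mcm5: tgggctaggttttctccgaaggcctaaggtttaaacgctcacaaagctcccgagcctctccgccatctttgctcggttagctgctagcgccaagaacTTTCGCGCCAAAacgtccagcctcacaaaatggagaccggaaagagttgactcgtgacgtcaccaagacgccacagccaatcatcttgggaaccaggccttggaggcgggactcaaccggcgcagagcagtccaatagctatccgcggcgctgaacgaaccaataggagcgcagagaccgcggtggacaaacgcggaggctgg
Mcm6: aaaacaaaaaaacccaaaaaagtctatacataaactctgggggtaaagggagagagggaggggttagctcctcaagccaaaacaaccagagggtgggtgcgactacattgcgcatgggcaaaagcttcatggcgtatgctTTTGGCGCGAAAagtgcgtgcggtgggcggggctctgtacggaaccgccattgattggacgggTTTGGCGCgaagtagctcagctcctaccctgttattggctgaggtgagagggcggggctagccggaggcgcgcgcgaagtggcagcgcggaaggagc
Pclaf: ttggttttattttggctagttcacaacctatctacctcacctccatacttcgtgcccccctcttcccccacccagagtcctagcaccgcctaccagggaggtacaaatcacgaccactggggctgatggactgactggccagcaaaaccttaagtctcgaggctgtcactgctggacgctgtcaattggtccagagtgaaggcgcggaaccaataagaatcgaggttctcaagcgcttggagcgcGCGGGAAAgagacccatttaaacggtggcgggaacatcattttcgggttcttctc

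Genes with E2F-site letters had a median log2 fold change in aging SNL of -0.92 over 18 genes, with a range of -2.53 to -0.12. Those without had a median of -0.52 over 25 genes, with a range of -2.02 to 0.01. With spesolimab the medians against control were -0.69 and -0.54. The ranges overlap broadly and no test was made of this difference. Tk1 and Chaf1b, which lay far below control in aging SNL, held no E2F-site letters in these windows.

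Among the licensing genes, which mark and load origins or control that loading, both aging SNL libraries lay below both controls for 10 of 11. Their median log2 fold change was -0.98. Over all genes tested 21.1% lay below in this way, the share to set beside the count of each role. Mcm5, a subunit of the helicase ring, was at 9.66 and 14 CPM (control), 2.55 and 3.13 CPM (aging SNL) and 4.79 and 3.35 CPM (spesolimab). Both treated groups lay far below control without overlap, a log2 fold change of -2.06 ± 0.30 (SE) for aging SNL (edgeR, adjusted p = 0.155 over 6 libraries, 0.039 without aging SNL replicate 1 and 0.00632 without replicate 2). Mcm3, another ring subunit, was at 21.3 and 24.8 CPM (control), 6.4 and 8.92 CPM (aging SNL) and 13.6 and 10.5 CPM (spesolimab). The spesolimab libraries lay between the other groups and overlapped neither. Against control, aging SNL differed by a log2 fold change of -1.59 ± 0.23 (edgeR, adjusted p = 0.155, 0.0235 without replicate 1 and 0.00192 without replicate 2). The remaining ring subunits were lower too, by less. Mcm4 was at 28.9 and 33.4 CPM (control), 18.6 and 17.7 CPM (aging SNL) and 23.7 and 19.7 CPM (spesolimab), with the same order of the 3 groups and no overlap (-0.78 ± 0.14 in aging SNL; edgeR, adjusted p = 0.0477 without replicate 1 and 0.0163 without replicate 2).

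Mcm7 and Mcm2 differed more between the aging SNL libraries. Mcm7 was at 29.8 and 38.6 CPM (control), 14.9 and 22.9 CPM (aging SNL) and 21.2 and 21.8 CPM (spesolimab). Mcm2 stood at 17.6 and 24.8 CPM (control), 8.14 and 12.9 CPM (aging SNL) and 11.3 and 13.9 CPM (spesolimab). For both, replicate 1 was the lower library, and their calls rested on it: the edgeR adjusted p without it was 0.118 for Mcm7 and 0.158 for Mcm2, and without replicate 2 it was 0.00479 and 0.0102. Mcm6 had its aging SNL libraries more than 2-fold apart, at 41.2 and 49.1 CPM (control), 14.7 and 31.1 CPM (aging SNL) and 29.6 and 29.9 CPM (spesolimab). Its difference, -0.98 ± 0.34, was -0.53 without replicate 1 (edgeR, adjusted p = 0.0778) and -1.62 without replicate 2 (adjusted p = 0.000736).

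The factors that act on the ring did not all follow it. Cdt1, which brings the ring to origins, was at 6.46 and 7.12 CPM (control), 4.84 and 3.67 CPM (aging SNL) and 4.32 and 3.65 CPM (spesolimab), lower in all 4 treated libraries (-0.67 ± 0.23 in aging SNL; edgeR, adjusted p = 0.352). Gmnn, which encodes geminin, the inhibitor of Cdt1, was at 6.69 and 8.75 CPM (control), 9.01 and 6.81 CPM (aging SNL) and 5.96 and 4.41 CPM (spesolimab). Gmnn was the only one of the 11 whose aging SNL libraries overlapped control, and the only one with a fitted fold change above 0, at 0.03 ± 0.26. That sign turned on the TPM scale, at -0.37, where the median of all genes was negative too, and without aging SNL replicate 1, at -0.18. Cdc6, which with Cdt1 loads the ring, was at 2.51 and 4.65 CPM (control), 2.17 and 0.542 CPM (aging SNL) and 1.05 and 1.18 CPM (spesolimab), with aging SNL replicate 2 the lowest library and replicate 1 close to control. In the origin recognition complex, Orc1 was at 1.31 and 1.29 CPM (control) and 0.745 and 0.422 CPM (aging SNL), and Orc6 at 14.8 and 12.8 CPM against 8.45 and 10.8 CPM. The complex's other subunits showed no such gap: chosen after their values were seen, Orc2, Orc3, Orc4 and Orc5 had log2 fold changes of 0.04 ± 0.14, -0.09 ± 0.10, 0.09 ± 0.12 and 0.13 ± 0.17.

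**Figure D3:**
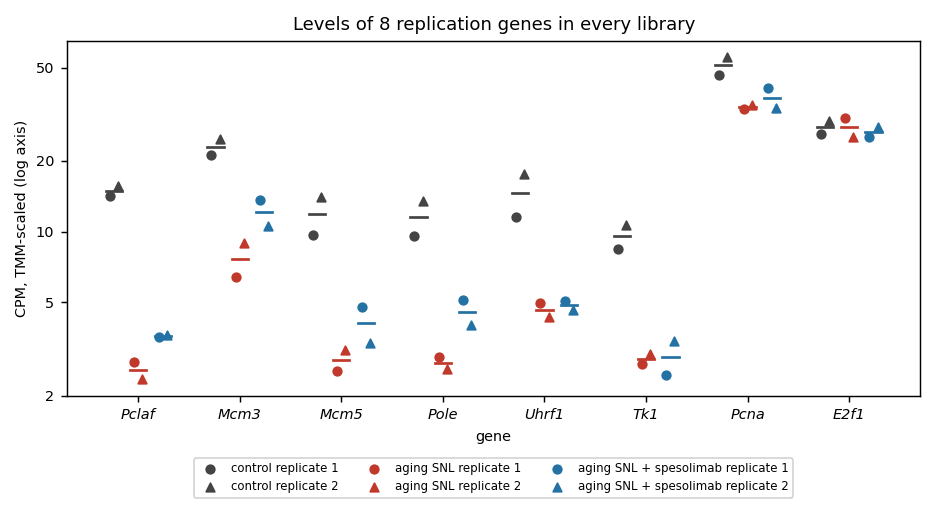
CPM with TMM-scaled library sizes, on a log axis, of 8 genes in every library; circles are replicate 1, triangles replicate 2, and the short bar is the mean of the 2 libraries. Pclaf runs from 14.2 and 15.7 CPM (control) to 2.8 and 2.35 CPM (aging SNL), while E2f1 stays between 25.3 and 30.6 CPM in all 6 libraries.

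Of the 6 genes that switch the helicase on, 4 lay below control without overlap in aging SNL, with a median of -0.59. Gins2, a GINS subunit, was at 7.09 and 7.91 CPM (control), 3.23 and 3.43 CPM (aging SNL) and 5.2 and 4.12 CPM (spesolimab). The groups did not overlap, with a log2 fold change of -1.17 ± 0.21 in aging SNL (edgeR, adjusted p = 0.174, 0.0672 without replicate 1 and 0.0167 without replicate 2). Cdc45, the other partner of the ring, was at 5.09 and 7.4 CPM (control), 3.73 and 3.55 CPM (aging SNL) and 3.1 and 3.77 CPM (spesolimab), with all 4 treated libraries below control. Gins1 was at 1.6 and 2.75 CPM (control), 0.683 and 1.27 CPM (aging SNL) and 1.52 and 1.77 CPM (spesolimab); its spesolimab libraries overlapped control, and its difference in aging SNL of -1.15 ± 0.46 was -0.78 without replicate 1 and -1.66 without replicate 2. Gins4 was at 16.4 and 16.8 CPM (control), 14.9 and 14.6 CPM (aging SNL) and 15.2 and 13.1 CPM (spesolimab). That difference, -0.17 ± 0.13, was small beside Gins2, so the subunits of GINS did not move by equal amounts. Gins3 and Mcm10 overlapped control in aging SNL and were lower with spesolimab.

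Among polymerase and primase genes, 7 of 8 lay below control in aging SNL, with a median of -0.60. Pole, the catalytic subunit of the leading-strand polymerase epsilon, was at 9.54 and 13.5 CPM (control), 2.92 and 2.59 CPM (aging SNL) and 5.14 and 4 CPM (spesolimab). The 3 groups did not overlap, and the aging SNL libraries were the lowest: -2.06 ± 0.26 (edgeR, adjusted p = 0.155, 0.0245 without replicate 1 and 0.00614 without replicate 2). Pole2, its second subunit, differed by less, at -0.68 ± 0.30, which was -0.36 without replicate 1 and -1.11 without replicate 2. Pola1, the catalytic subunit of the primer-extending polymerase alpha, was at 11.7 and 16.3 CPM (control), 4.66 and 7.23 CPM (aging SNL) and 11.7 and 7.83 CPM (spesolimab). One spesolimab library reached the lower control, and the call in aging SNL rested on replicate 1, with an edgeR adjusted p of 0.151 without it and 0.0159 without replicate 2. Pold1, the catalytic subunit of the lagging-strand polymerase delta, was at 16.3 and 20 CPM (control), 12.8 and 12.7 CPM (aging SNL) and 13.8 and 13.9 CPM (spesolimab) (-0.51 ± 0.14 in aging SNL; edgeR, adjusted p = 0.29). Prim2, a primase subunit, was at 9.6 and 12.1 CPM (control), 8.01 and 7.71 CPM (aging SNL) and 8.12 and 7.59 CPM (spesolimab). Both were lower in all treated libraries by less than Pole. Prim1, the catalytic primase subunit, was at 6.57 and 9.19 CPM (control), 1.8 and 4.88 CPM (aging SNL) and 5.02 and 4.3 CPM (spesolimab), so that aging SNL replicate 1 stood alone at the bottom. Its difference of -1.24 ± 0.48 was -0.69 without replicate 1 and -2.13 without replicate 2. Pola2, the second subunit of polymerase alpha, overlapped control in aging SNL, at 10.7 and 6.93 CPM against 9.66 and 10.9 CPM. Pold2, the second subunit of polymerase delta, was at 14.2 and 15.2 CPM (control) and 13.1 and 14 CPM (aging SNL), a difference of -0.12 ± 0.12.

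In the clamp group, 8 of 9 lay below control in aging SNL (21.1% of all genes tested), with a median of -0.58. Pclaf, a small protein that binds the clamp during synthesis, had the largest fold change of the 52. It was at 14.2 and 15.7 CPM (control), 2.8 and 2.35 CPM (aging SNL) and 3.56 and 3.65 CPM (spesolimab), where aging SNL was lowest and no groups overlapped. The log2 fold change in aging SNL was -2.53 ± 0.18 (edgeR, adjusted p = 0.055, 0.00682 without replicate 1 and 0.000673 without replicate 2). Pcna itself, the clamp, was at 46.5 and 55.5 CPM (control), 33.4 and 34.8 CPM (aging SNL) and 40.9 and 33.5 CPM (spesolimab), lower in all 4 treated libraries but by much less, at -0.58 ± 0.14. Lig1, the ligase that seals the fragments, was at 20.7 and 22.4 CPM (control), 9.75 and 10.5 CPM (aging SNL) and 12.8 and 10.2 CPM (spesolimab). Both treated groups lay well under control and overlapped each other, with -1.09 ± 0.16 in aging SNL (edgeR, adjusted p = 0.155, 0.0339 without replicate 1 and 0.00548 without replicate 2). Rfc5, a subunit of the clamp loader, was at 7.32 and 9.76 CPM (control), 3.98 and 4.58 CPM (aging SNL) and 5.66 and 5.35 CPM (spesolimab) (-0.996 ± 0.22 in aging SNL; edgeR, adjusted p = 0.211). Its loader partners Rfc3 and Rfc4 and the flap nuclease Fen1 were lower without overlap as well, at -0.84 ± 0.30, -0.50 ± 0.18 and -0.48 ± 0.18. The value of Rfc3 was -0.54 without replicate 1 and -1.23 without replicate 2. Of the single-strand binding subunits, Rpa1 was at 65.2 and 73.9 CPM (control), 60 and 52.9 CPM (aging SNL) and 59.3 and 61.8 CPM (spesolimab), lower without overlap in both treated groups, with -0.30 ± 0.11 in aging SNL. Rpa2 overlapped control in both treated groups, at -0.03 ± 0.14, and at 0.03 without replicate 1.

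Nucleotide supply followed the same direction for 4 of 5 genes, with a median of -0.67. Tk1, which salvages thymidine in S phase, was at 8.4 and 10.7 CPM (control), 2.73 and 3.01 CPM (aging SNL) and 2.45 and 3.41 CPM (spesolimab). Aging SNL with and without spesolimab overlapped, both well under control: -1.73 ± 0.26 in aging SNL and -1.70 ± 0.26 with spesolimab (edgeR over 6 libraries, adjusted p = 0.155 and 0.275). Rrm2, the S-phase subunit of ribonucleotide reductase, was at 32.5 and 54.8 CPM (control), 22 and 13.5 CPM (aging SNL) and 17.7 and 17.5 CPM (spesolimab), so that the controls themselves differed widely and still lay above the rest. Its larger partner Rrm1 was at 41.3 and 54 CPM (control), 31.4 and 28.5 CPM (aging SNL) and 29.8 and 29.5 CPM (spesolimab). The log2 fold changes in aging SNL were -1.30 ± 0.33 for Rrm2 and -0.67 ± 0.15 for Rrm1. Dut, which clears dUTP, was at 19.1 and 21.1 CPM (control), 11.1 and 17.2 CPM (aging SNL) and 15.6 and 17.4 CPM (spesolimab). Its difference in aging SNL, -0.51 ± 0.23, was -0.22 without replicate 1 and -0.86 without replicate 2. Tyms, the thymidylate synthase, was the one that overlapped control in aging SNL, at 12.7 and 13.7 CPM against 13.7 and 8.25 CPM.

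Of the genes that copy chromatin and methylation behind the fork, 4 of 5 lay below control in aging SNL, with a median of -0.71. Uhrf1, which reads hemimethylated DNA for the maintenance methyltransferase, was at 11.5 and 17.7 CPM (control), 4.97 and 4.34 CPM (aging SNL) and 5.08 and 4.65 CPM (spesolimab). The 4 treated libraries lay between 4.34 and 5.08 CPM, with -1.65 ± 0.25 in aging SNL (edgeR, adjusted p = 0.165, 0.0359 without replicate 1 and 0.0117 without replicate 2). The methyltransferase it recruits, Dnmt1, was at 62.5 and 78.4 CPM (control) and 47 and 65.8 CPM (aging SNL), overlapping, at -0.32 ± 0.20, which was -0.10 without replicate 1 and -0.59 without replicate 2. Chaf1b and Chaf1a are subunits of the histone chaperone CAF-1. Chaf1b was at 3.54 and 5.44 CPM (control), 1.18 and 1.02 CPM (aging SNL) and 1.69 and 1.82 CPM (spesolimab) (-2.02 ± 0.33 in aging SNL; edgeR, adjusted p = 0.0529 without replicate 1 and 0.0184 without replicate 2). Chaf1a was at 11.4 and 13.5 CPM (control), 7.83 and 7.41 CPM (aging SNL) and 8.18 and 8.89 CPM (spesolimab) (-0.71 ± 0.16). Neither subunit overlapped between any groups. Slbp, which binds the stem-loop of histone messages, was at 34.1 and 35.9 CPM (control), 28.8 and 30.4 CPM (aging SNL) and 30.7 and 28.1 CPM (spesolimab), a small gap of -0.24 ± 0.10.

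S-phase entry control divided. Ccne2, one of the E-type cyclins, was at 5.89 and 10 CPM (control), 1.06 and 2.53 CPM (aging SNL) and 2.45 and 3.3 CPM (spesolimab), below control in all treated libraries (-2.14 ± 0.50 in aging SNL; edgeR, adjusted p = 0.237, 0.082 without replicate 1 and 0.00699 without replicate 2). Its paralog Ccne1 was at 9.6 and 11.2 CPM (control), 11.6 and 7.83 CPM (aging SNL) and 7.71 and 10 CPM (spesolimab), overlapping throughout (-0.10 ± 0.25 in aging SNL, and 0.15 without replicate 2). E2f8, an atypical E2F that represses S-phase genes, was at 3.37 and 4.82 CPM (control), 0.87 and 2.23 CPM (aging SNL) and 1.87 and 2 CPM (spesolimab). It lay below control in all 4, with the call resting on replicate 1 (edgeR, adjusted p = 0.228 without it and 0.0114 without replicate 2). The activator E2f1 was at 26 and 29.6 CPM (control), 30.6 and 25.4 CPM (aging SNL) and 25.3 and 27.8 CPM (spesolimab). The groups overlapped throughout, with a log2 fold change of 0.01 ± 0.14 in aging SNL. That sign turned on the TPM scale (-0.22), where the median of all genes was also -0.22, and without aging SNL replicate 1 (-0.13). E2f2, another activator, was at 1.66 and 2.75 CPM (control), 2.17 and 1.39 CPM (aging SNL) and 1.4 and 1.29 CPM (spesolimab). Of this class, 2 of 5 lay below control in aging SNL, where 21.1% of all genes tested did.

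All 3 recombination and resection genes lay below control in both treated groups, with a median of -0.99 in aging SNL. Of all genes tested, 21.1% lay below control in aging SNL and 24.6% with spesolimab. Exo1, an exonuclease that trims DNA ends, was at 2.51 and 3.36 CPM (control), 0.807 and 0.964 CPM (aging SNL) and 1.17 and 1.06 CPM (spesolimab) (-1.72 ± 0.33; edgeR, adjusted p = 0.18). Brca1, which starts repair by recombination, was at 6.06 and 7.46 CPM (control), 3.6 and 3.19 CPM (aging SNL) and 3.21 and 3.47 CPM (spesolimab) (-0.99 ± 0.22). Brca2, which acts in repair by recombination, was at 9.6 and 13.6 CPM (control), 7.14 and 6.99 CPM (aging SNL) and 9.29 and 9.18 CPM (spesolimab) (-0.71 ± 0.20).

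**Figure D4:**
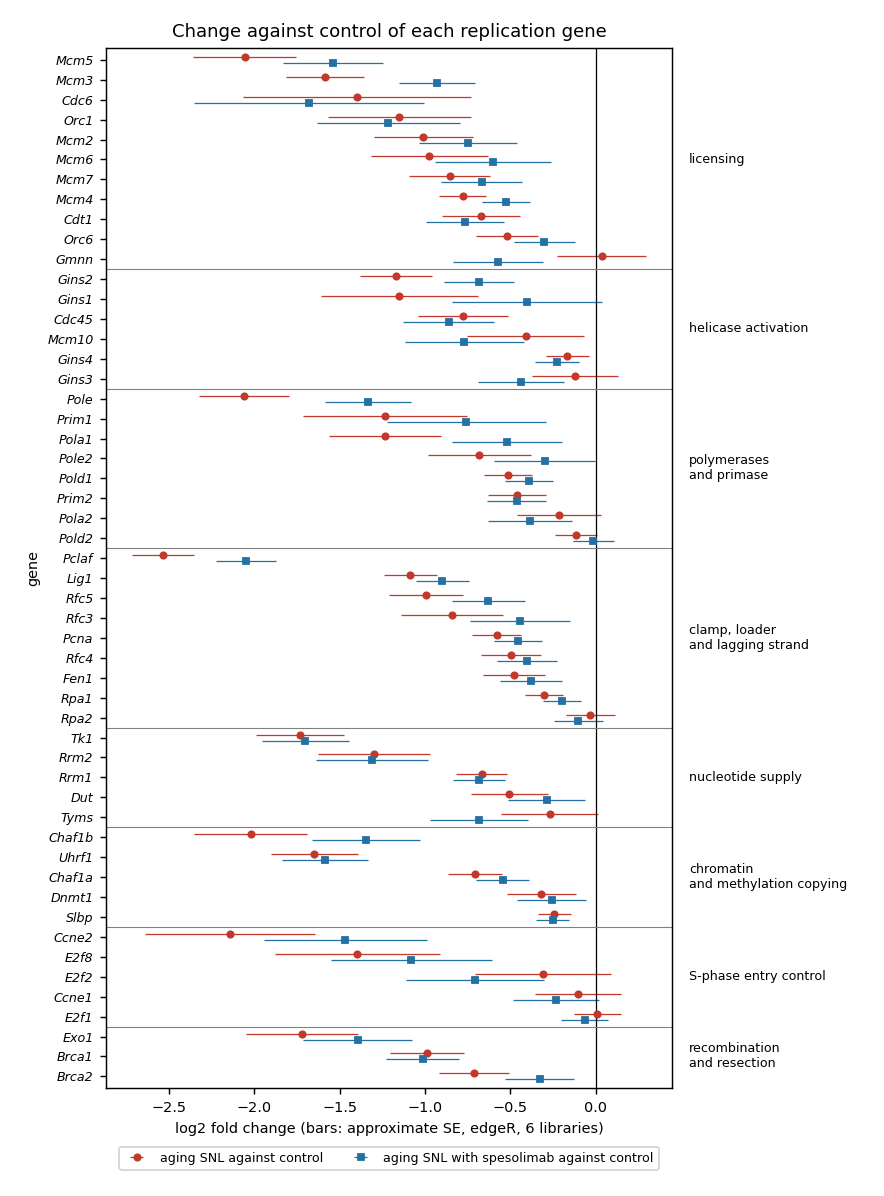
Log2 fold change against control of each of the 52 genes, grouped by role, from the edgeR fit to 6 libraries; circles are aging SNL, squares aging SNL with spesolimab, bars the approximate SE. Both series lie left of 0 for nearly every gene, from Pclaf at -2.53 and -2.05 to Rpa2 at -0.03 and -0.10, and Gmnn, at 0.03 and -0.57, and E2f1, at 0.01 and -0.06, are the genes whose 2 symbols lie on opposite sides.

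With spesolimab, the median gene was slightly above aging SNL, by a log2 fold change of 0.11, with a range of -0.61 to 0.75 and -0.01 for all genes tested. Of the 52, 33 had a fitted fold change above 0 (49% of all genes), and the sign turned for 18 of the 52 without aging SNL replicate 1 and for 2 without replicate 2. For 15 both spesolimab libraries lay above both aging SNL libraries (13.5% of all genes), and for 3, Gmnn, Mcm10 and Gins3, below (13.4% of all genes). At an unadjusted p under 0.05, 3 of 52 were higher (1.44% of all genes) and 0 lower: Mcm3 at 0.66 ± 0.23, Pole at 0.73 ± 0.27 and Pclaf at 0.49 ± 0.19. In edgeR 0 of 52 passed an adjusted p of 0.05 in either direction, as did 0% of all genes, and DESeq2 also called 0 either way. Without aging SNL replicate 1 edgeR called 0. Without replicate 2 it called 4 higher, Dut, Mcm3, Mcm6 and Prim1 (9.59% of all genes), and 1 lower, Tyms (10.9% of all genes). These calls came only with replicate 1 as the lone aging SNL library. Gmnn had the lowest fitted value, at -0.61 ± 0.26 (edgeR, adjusted p = 0.956), from 9.01 and 6.81 CPM to 5.96 and 4.41 CPM.

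The replication genes were lower than control in the spesolimab libraries too. All 52 had a fitted log2 fold change below 0 (49.9% of all genes), with a median of -0.62, a range of -2.05 to -0.01 and 0.00 for all genes tested. For 46 both spesolimab libraries lay below both controls (24.6% of all genes), and for 0 above. At an unadjusted p under 0.05, 26 were lower (3.06% of all genes). The edgeR fit to 6 libraries called 0 of 52 at an adjusted p of 0.05 (0% of all genes), with the lowest at 0.169 for Pclaf, while DESeq2 called 7 (0.636% of all genes). Fitted to these 4 libraries alone, edgeR called 9 lower (1.37% of all genes): Lig1, Mcm3, Mcm5, Mcm6, Pclaf, Pole, Rrm2, Tk1 and Uhrf1. In that fit the log2 fold change was -2.05 for Pclaf (adjusted p = 0.00429), -1.70 for Tk1 (adjusted p = 0.0201), -1.58 for Uhrf1 (adjusted p = 0.0248) and -0.90 for Lig1 (adjusted p = 0.0263). This comparison uses the same controls as the first and the same spesolimab libraries as the second, so the 3 are not independent.

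The levels of these genes, compared per length as TPM, a share of transcripts, covered a wide range. The Pcna level was the highest, with 97.9 and 119 TPM in control, followed by Rpa1 at 49.7 and 57.6 TPM, Rrm2 at 35.9 and 61.9 TPM and Slbp at 44 and 47.3 TPM. The lowest were Orc1 at 1.01 and 1.02 TPM, E2f2 at 0.9 and 1.63 TPM and Cdc6 at 1.23 and 2.32 TPM. Within the helicase ring the control levels ran from Mcm6 at 31.4 and 38.4 TPM and Mcm7 at 28.6 and 38.1 TPM, whose ranges overlapped, to Mcm5 at 6.46 and 9.59 TPM, below all others. Between them were Mcm4 at 18.5 and 21.8 TPM, Mcm3 at 16.3 and 19.4 TPM and Mcm2 at 12 and 17.3 TPM, where Mcm3 overlapped both Mcm4 and Mcm2. In aging SNL Mcm5 was at 1.31 and 2 TPM and still the lowest of the ring.

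Genes next to the 52 were read from 5 lists: other replication factors, fork protection and repair, nucleotide synthesis, G1 and S-phase regulators, and mitosis. In aging SNL 20 of 36 other replication factors lay below control without overlap, 18 of 35 genes of fork protection and repair, 10 of 24 of nucleotide synthesis and 18 of 36 G1 and S-phase regulators, while 8 others of those 36 lay above. Of mitosis genes 28 of 30 lay below. Over all genes tested, 21.1% lay below and 20.9% above. The medians were -0.32, -0.22, -0.32, -0.19 and -1.18. With edgeR and without aging SNL replicate 1, the calls lower numbered 2, 1, 1, 3 and 20 in that order, and without replicate 2 they numbered 4, 11, 14, 8 and 23. The shares of all genes in these fits were 1.61% and 12.3%, and some of the lists lie near them. Of these 5 lists, mitosis had the lowest median.

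**Figure D5:**
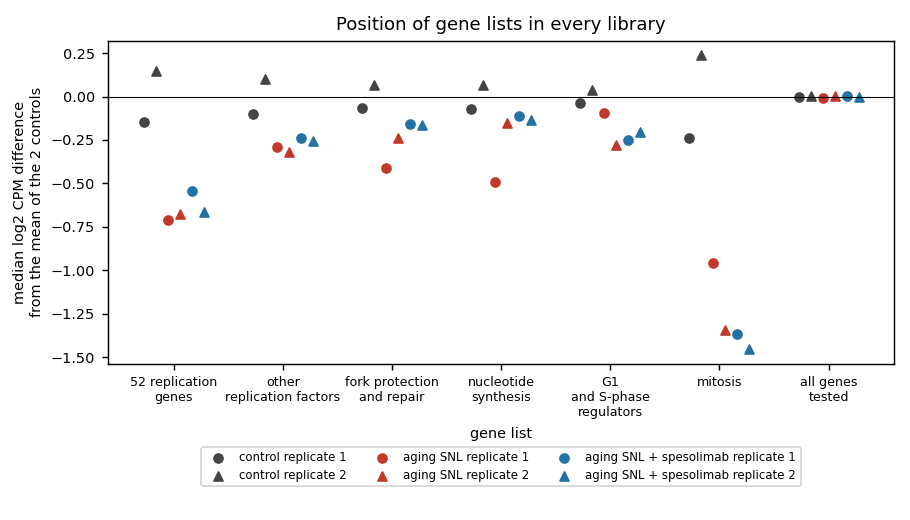
Median log2 CPM of each gene list in each library, relative to the mean of the 2 controls; colours are groups, circles replicate 1 and triangles replicate 2. The 52 replication genes sit at -0.71 and -0.68 in aging SNL and mitosis genes at -0.96 and -1.34, while all genes tested stay near 0 in every library.

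Ticrr, which helps load Cdc45, was at 3.37 and 4.15 CPM (control), 1.24 and 0.904 CPM (aging SNL) and 1.4 and 1.59 CPM (spesolimab). Chtf18, of an alternative clamp loader, was at 3.89 and 4.49 CPM (control), 1.18 and 1.69 CPM (aging SNL) and 2.28 and 2.24 CPM (spesolimab). In both genes the groups did not overlap and aging SNL was lowest. Top2a, the topoisomerase of S phase and mitosis, was at 85.4 and 118 CPM (control), 52.8 and 38.1 CPM (aging SNL) and 38.6 and 37 CPM (spesolimab). Ccna2, the S-phase cyclin, was at 25.3 and 35.9 CPM (control), 9.25 and 11.4 CPM (aging SNL) and 11.3 and 9.42 CPM (spesolimab); it fell in aging SNL with either library left out (-1.56 ± 0.23; edgeR, adjusted p = 0.0354 without replicate 1 and 0.00456 without replicate 2). Cdk1, a cyclin-dependent kinase, was at 31.4 and 36.6 CPM (control), 23.5 and 19.6 CPM (aging SNL) and 18.3 and 20.1 CPM (spesolimab). Ccnd2, a G1 cyclin, was at 477 and 499 CPM (control), 304 and 356 CPM (aging SNL) and 367 CPM in both spesolimab libraries. For these genes of the list of G1 and S-phase regulators the treated libraries all lay below control.

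Esco2, which acetylates cohesin at the fork, was at 4.57 and 6.95 CPM (control), 1.61 and 1.69 CPM (aging SNL) and 2.34 and 2.06 CPM (spesolimab). Fanci, of the crosslink repair pathway, was at 5.54 and 6.39 CPM (control), 2.05 and 2.47 CPM (aging SNL) and 2.69 and 2.18 CPM (spesolimab). For both, the 4 treated libraries lay below control, with log2 fold changes in aging SNL of -1.80 ± 0.30 for Esco2 and -1.40 ± 0.25 for Fanci. Parp1, a sensor of strand breaks, had a smaller difference of -0.56 ± 0.10. In nucleotide synthesis, Shmt1, which feeds thymidylate synthesis, was at 4.69 and 5.94 CPM (control), 2.05 and 2.35 CPM (aging SNL) and 3.62 and 2.24 CPM (spesolimab). The purine enzymes Impdh2 and Atic differed by -0.37 ± 0.11 and -0.38 ± 0.12. Mki67, a general marker of cycling cells, was at 84.2 and 114 CPM (control), 34 CPM in both aging SNL libraries and 32.9 and 33.7 CPM (spesolimab). Kif20a and Racgap1, which act in cytokinesis, had log2 fold changes of -1.35 ± 0.16 and -0.88 ± 0.11. These 3 mitosis genes fell in edgeR with either aging SNL library left out, Mki67 at adjusted p = 0.0162 without replicate 1 and 0.0022 without replicate 2. Cdkn1a, which encodes the CDK inhibitor p21, was chosen after its values were seen: 98.5 and 136 CPM (control), 341 and 166 CPM (aging SNL) and 118 and 151 CPM (spesolimab). Both aging SNL libraries lay above both controls, but the call rested on replicate 1 (edgeR, adjusted p = 0.239 without it and 0.00334 without replicate 2).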

How the data were processed

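RNA-seq was made from 6 libraries of primary articular chondrocytes, with mRNA enriched on oligo(dT) beads, per the labels' protocols. Named in the submitters' processing notes, with no role, are the build GRCm39 and the tools RSEM 1.3.1, Bowtie2 2.3.4.3 and DESeq2 1.4.5. Strand and annotation are not given in the sources used here. Overlapping genes may therefore share reads. The authors deposited estimated counts and TPM per gene and library, per the file headers. FPKM values were also deposited by the authors, per the file headers, but were not used, nor were 9 columns of group averages. Of 22173 genes listed, 17189 had values.

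The expected counts deposited by the authors were rounded to whole numbers. Genes were kept by filterByExpr (minimum count 10, minimum total 15), which left 13399. Library sizes were scaled by TMM. The edgeR 4.0.16 quasi-likelihood test (R 4.3.3) used all 6 libraries, a mean for each of the 3 groups, and 3 residual degrees of freedom. Adjustment was by Benjamini-Hochberg over all genes tested, at 0.05. SE is approximate: the absolute fitted value over the root of its F statistic. An exact permutation of 2 against 2 libraries cannot go below p = 0.333, so none was used. The script was tested on simulated data. Alternatives were no low-count filter, RLE scaling, DESeq2 1.42.0, limma 3.58.1 on log2(TPM + 1) and log2(TPM + 0.5), voom with library weights, a replicate block, the compared groups alone, and each library left out. The TPM values deposited by the authors sum to the same total in each library; on log2(TPM + 1) the median of all genes was -0.22 in aging SNL against control and 0.14 with spesolimab against aging SNL.

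Genes were named by p-value within each role: up to 4 per role, 3 per neighbouring list and 4 for each comparison with spesolimab, with Pcna, E2f1, Mcm2, Cdt1, Gmnn and Ccne1 always. Other members are given where they show a range or an exception. A member with both aging SNL libraries above both controls would also have been named; there were 0. The members, lists and rule were chosen with earlier results of these data known. Promoter windows came from RefSeq on GRCm38.p6, which is not the build of the counts, so their coordinates belong to the windows only.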

Additional observations from a re-analysis of the deposited data

How the results depend on the processing

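The median log2 fold change of the 52 genes kept its sign under every alternative run: with 1 library left out it ranged from -0.91 to -0.61 in aging SNL against control, 0.10 to 0.16 with spesolimab against aging SNL, and -0.75 to -0.42 with spesolimab against control. On log2(TPM + 1) and log2(TPM + 0.5) the second rose to 0.25 and 0.26, beside an all-gene median of 0.14 on the first of these scales. Calls varied more. In aging SNL against control edgeR called 0 of 52 lower over 6 libraries and DESeq2 14, with 0 to 29 when each library was left out in turn; calls higher numbered 0 throughout. With spesolimab against aging SNL, leave-one-out calls ranged from 0 to 1 lower and 0 to 4 higher. With spesolimab against control, DESeq2 called 7 (0.636% of all genes) and the compared groups alone 9 (1.37% of all genes). Voom with library weights called 3, a fit for which no share over all genes was taken. The compared groups alone leave out the aging SNL libraries. Between the 6-library fit and that one, the log2 fold change of Pclaf stayed at -2.05, with an SE of 0.178 and 0.145. For Mcm6 it stayed at -0.60, with an SE of 0.339 and 0.102. Why the calls differed was not tested. Of the genes named by rule, signs turned for 4 in aging SNL against control, none of which passed the test in those fits. Among the other members, with 1 aging SNL library left out, Rpa2 turned to 0.03 without replicate 1, and Pola2 and Tyms to 0.06 and 0.05 without replicate 2. Gmnn was at -0.37 and -0.38 on log2(TPM + 1) and log2(TPM + 0.5), and from -0.18 to 0.24 with 1 library left out, including -0.15 without control replicate 1. E2f1 was at -0.22 and -0.23 on those scales, and from -0.13 to 0.13 with 1 library left out, including -0.08 without control replicate 1. On the first of those scales the median of all genes in aging SNL against control was also -0.22. Ccne1 ranged from -0.41 to 0.15, including 0.01 without control replicate 2, and E2f2 from -0.67 to 0.10. With the replicate number as a block, calls stayed at 0 of 52 in each comparison and the medians were -0.73, 0.11 and -0.60. The labels state no pairing, and with 2 numbers it cannot be settled; deviations of same-numbered libraries correlated at 0.246, 0.419 and 0.286 between the pairs of groups. Each group has 2 libraries and the test 3 residual degrees of freedom; at the lowest count of 7 the counting error is 37.8%.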
